A study of Homo sapiens with 6 samples.

Results

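The imprinted H19/IGF2 domain on chromosome 11 gives rise to the hairpins MIR675 and MIR483, and their 4 mature products, miR-675-5p, miR-675-3p, miR-483-5p and miR-483-3p, were followed in azacitidine-resistant and azacitidine-sensitive K562 cells. The members were the rows of the count table that carry these 4 names, out of 2656 mature miRNAs in all. K562 is a human leukaemia cell line derived from chronic myelogenous leukaemia in blast crisis, and the labels give its cell type as myeloblast. Azacitidine is a cytidine analogue that lowers DNA methylation by trapping DNA methyltransferases.

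The resistant group was K562 cells kept for months in rising azacitidine concentrations, with 3 libraries called biological replicates, and the sensitive group was K562 cells without that selection, also with 3 libraries. Both groups grew in the same RPMI medium with serum. The labels do not say whether azacitidine was present at harvest, do not explain the letters NT in the library names, and name no separate selections of resistant cells, so p-values cover the spread between these libraries. A change tied to resistance and a change that arose in the selected cells for other reasons cannot be told apart in this design. The series title names the H19 transcript as overexpressed in the resistant cells. The H19 and IGF2 transcripts themselves lie outside a small RNA count table and were not analysed here.

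H19 is a long non-coding RNA made from the maternal chromosome, and IGF2, the gene of a fetal growth factor, is expressed mainly from the paternal chromosome. A control region between both genes is methylated on the paternal copy, and this methylation keeps the CTCF protein off and directs shared enhancers to IGF2. A hairpin within H19 can be cut out to give miR-675, which slows growth through Igf1r in the mouse placenta and targets RB1 in human colorectal cancer cells. miR-483 comes from an intron of IGF2 and is abundant in fetal liver and in Wilms tumours, and its 3p arm represses the pro-apoptotic gene BBC3.

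In GRCh38, MIR675 occupies positions 1996759 to 1996831 of chromosome 11, minus strand, within the span of H19 (1995176 to 2001470 in GENCODE 29, same strand). The hairpin falls in exon 1 of 4 of the 12 annotated H19 transcripts, in an intron of 1, and outside the other 7. MIR483, also on the minus strand, occupies positions 2134134 to 2134209, 137.3 kilobases from MIR675, and falls in an intron of 9 of the 11 annotated IGF2 transcripts and outside the other 2. Of the 4 members, 2 matched a mature sequence in the RefSeq table (GRCh38.p14). The MIR675 hairpin is shown because both of its arms carry the main difference between the groups, and capitals mark the mature arms, 5p first. In the mature sequences, which are shown to compare their seeds, capitals mark bases 2 to 8, the seed that pairs with target transcripts. The seeds of both arms differ, so the arms do not belong to 1 seed family. miR-4466, from a hairpin on chromosome 6, is the other miRNA with the seed of miR-675-5p among the 2367 of the count table that have a RefSeq sequence.
MIR675 hairpin: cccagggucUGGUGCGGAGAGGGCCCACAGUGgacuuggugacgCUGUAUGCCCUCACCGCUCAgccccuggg
hsa-miR-675-5p: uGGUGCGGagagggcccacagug
hsa-miR-675-3p: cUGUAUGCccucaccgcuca
hsa-miR-4466: gGGUGCGGgccggcgggg

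The hairpin has 73 bases, of which 54 are paired in the fold of lowest free energy that RNAfold predicts (-47.8 kcal/mol). In that fold 19 of the 23 bases of the 5p arm and 17 of the 20 bases of the 3p arm are paired. Both arms are rich in G and C. The GC content is 69.6% for miR-675-5p, 60% for miR-675-3p and 94.4% for miR-4466, against a median of 47.8% over the 677 tested miRNAs that have a RefSeq sequence.

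Library totals were 8305961, 10644739 and 3291500 counts for resistant replicates 1 to 3, and 12563945, 10197963 and 5660055 counts for sensitive replicates 1 to 3. The 9 blood cell miRNAs chosen to check the cell type summed to 26518 to 51489 raw CPM (counts per 1000000 of the library total) in resistant and 17037 to 19604 in sensitive libraries. The higher resistant sums came from miR-486-5p, at 15544, 11929 and 48960 raw CPM in resistant replicates 1 to 3, against 4530 to 5943 in sensitive libraries. Without both miR-486 arms the sums were 10888, 14041 and 1211 raw CPM in resistant replicates 1 to 3, against 11979 to 13521 in sensitive libraries, so that resistant replicate 3 was far lower than every other library. Of the 9, miR-155-5p was nearly absent, at 0, 0 and 0.608 raw CPM in resistant replicates 1 to 3. In sensitive replicates 1 to 3 it had 0.398, 0.098 and 0.177 raw CPM. The 10 miRNAs of liver, muscle, neurons, epithelium, endocrine and pluripotent cells summed to 67.0 to 88.7 and 50.7 to 105.7 raw CPM, most of it from miR-375-3p, with miR-122-3p and miR-302a-3p at 0 in all libraries. The part of these lists in the results was not tested. Resistant replicate 3 stood apart. Its correlation with resistant replicates 1 and 2 was 0.875 and 0.864 (Pearson, log2 CPM across miRNAs), against 0.995 between those replicates. miR-92a-3p took 58.6% of its counts, against 20.2% and 17.5% in resistant replicates 1 and 2. Its log2 deviation from those replicates rose with the GC content of the mature miRNA (Spearman's rho 0.715 across 677 miRNAs, which are not independent replicates). Results on miR-675 are therefore given with and without this library.

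Both arms of miR-675 were far higher in resistant than in sensitive cells, and both arms of miR-483 were at the edge of detection in both groups. miR-675-5p, the arm with the RB1-targeting activity described in colon cells, had 1641, 2086 and 925 counts in resistant replicates 1 to 3, against 66, 56 and 25 counts in sensitive replicates 1 to 3. As a share of the library these were 198, 196 and 281 raw CPM in resistant libraries (exact 95% binomial intervals 188 to 207, 188 to 205 and 263 to 300), against 5.25, 5.49 and 4.42 raw CPM in sensitive libraries (4.06 to 6.68, 4.15 to 7.13 and 2.86 to 6.52). The groups did not overlap, the sensitive libraries lay within each other's intervals, and resistant replicate 3 lay above the intervals of both other resistant libraries. These intervals cover counting error only, since reads without molecular identifiers are not independent molecules.

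miR-675-3p had 3093, 3832 and 1425 counts in resistant replicates 1 to 3, against 144, 108 and 47 counts in sensitive replicates 1 to 3. The shares were 372, 360 and 432.9 raw CPM in resistant libraries, against 11.5, 10.6 and 8.30 raw CPM in sensitive libraries (exact 95% intervals of 411 to 456 in resistant replicate 3, the highest of its group, and 9.67 to 13.5 in sensitive replicate 1, the highest of its own). The groups again did not overlap, and resistant replicate 3 was again the highest library.

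**Figure D1:**
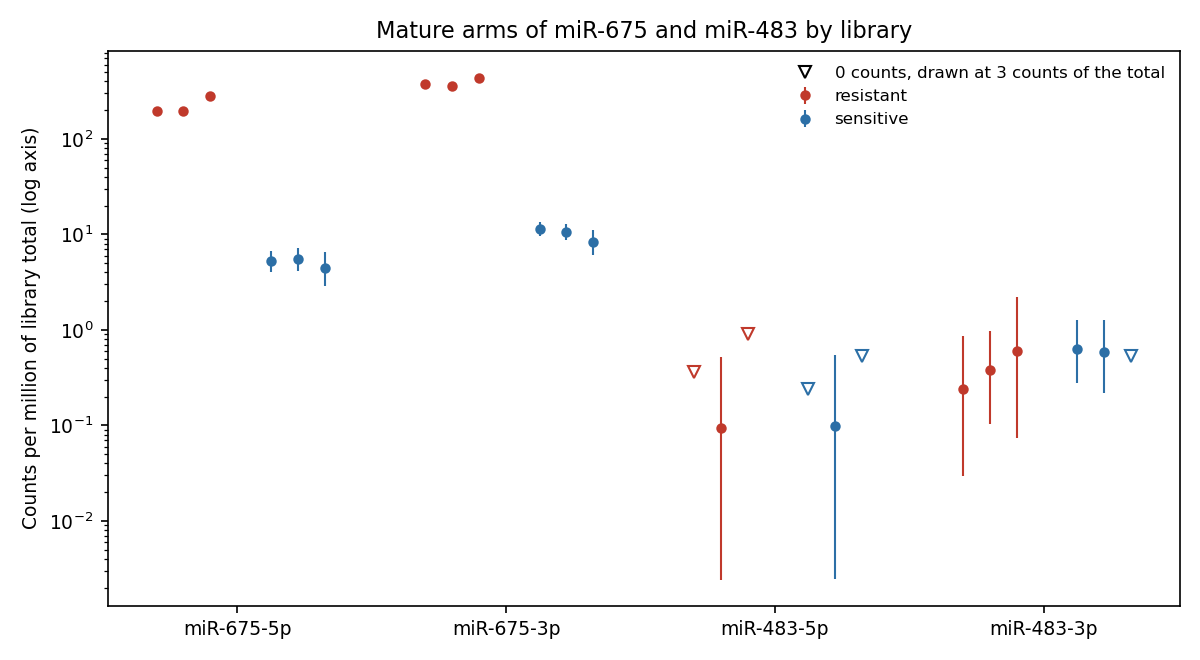
Level on a log axis, in raw CPM, for each mature arm in each library, replicates 1 to 3 from left to right within a group; points with bars are shares with exact 95% binomial intervals, and open triangles are libraries with 0 counts drawn at the limit of 3 counts. Both miR-675 arms lie between 196 and 432.9 in resistant libraries and between 4.42 and 11.5 in sensitive libraries, while both miR-483 arms stay under 1 in every library.

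Scaled by trimmed mean of M values (TMM) factors, to counts per 1000000 of the effective library size (CPM), miR-675-5p averaged 229 ± 116 CPM in resistant and 5.28 ± 0.577 CPM in sensitive cells (SD, n = 3 each). Resistant over sensitive, this was a log2 fold change of 5.43 ± 0.55 (SE), with an edgeR quasi-likelihood adjusted p = 0.00219. miR-675-3p averaged 388 ± 149 CPM in resistant and 10.6 ± 1.69 CPM in sensitive cells, a log2 fold change of 5.19 ± 0.50 (SE), with an edgeR adjusted p = 0.00219. Both arms rose, against 2.08% of the 768 tested miRNAs that were called higher at an adjusted p under 0.05 (16 higher and 16 lower, or 27 higher and 16 lower when scaled by library totals). Over all tested miRNAs the median log2 fold change was -0.11, miR-675-5p ranked 2 and miR-675-3p ranked 3 by log2 fold change, so that 1 other miRNA had a higher one. The lowest resistant library had 27.5 times the CPM of the highest sensitive library for miR-675-5p and 24.1 times for miR-675-3p, in a table where 18.9% of the tested miRNAs had all resistant above all sensitive libraries.

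The spread among the resistant libraries depended on the scaling. Of the TMM factors, 0.774 in resistant replicate 3 was the lowest, and 1.18 and 1.25 in resistant replicates 1 and 2 were the highest. The CPM of miR-675-5p were therefore 167, 157 and 363 in resistant replicates 1 to 3, a coefficient of variation of 50.7%, against 10.9% over the sensitive libraries. By library totals alone the resistant libraries averaged 225 ± 48.7 and the sensitive libraries 5.05 ± 0.564 raw CPM (SD, n = 3 each), a ratio of 44.5. For miR-675-3p the averages by library totals were 388 ± 39.0 and 10.1 ± 1.63 raw CPM, a ratio of 38.4. These ratios compare with 43.2 and 36.6 from the TMM fit.

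Among the miRNAs with a count in a library, miR-675-5p ranked 198th, 202nd and 141st in abundance in resistant replicates 1 to 3 and between 510th and 535th in sensitive libraries, with 1143 to 1383 and 1120 to 1326 miRNAs detected. miR-675-3p ranked 152nd, 158th and 103rd in resistant and between 421st and 463rd in sensitive libraries. Mature miRNAs are of nearly equal length, but ligation preferences of the library kit enter such ranks. In bulk RNA, fewer cells that make a miRNA and less of it per cell cannot be told apart.

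The size of the increase varied with the processing more than its direction. Without resistant replicate 3 the log2 fold changes were 4.98 for miR-675-5p and 4.88 for miR-675-3p (edgeR adjusted p = 1.08e-07 for each), in a fit that called 13.7% of its tested miRNAs higher. With a correction for GC content in each library, miR-675-5p was 16.1-fold higher (log2 fold change 4.01) and miR-675-3p 19.9-fold higher (log2 fold change 4.32, edgeR adjusted p = 0.000457 for each), against 43.2-fold and 36.6-fold without it, and 2.81% of the miRNAs of that fit were called higher. Resistant replicate 3 exceeded the mean of both other resistant libraries by 1.16 for miR-675-5p and 0.89 for miR-675-3p (log2 CPM), higher than in 76.0% and 70.7% of the tested miRNAs. The part of GC content in the increase was not tested beyond that correction.

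Leaving out a sensitive library weakened the call more than leaving out a resistant one. miR-675-5p missed the threshold without sensitive replicate 2 (log2 fold change 5.68, edgeR adjusted p = 0.0548), while miR-675-3p passed in that fit (edgeR adjusted p = 0.0490) and was the 1 miRNA called higher among 800 tested (0.125%). Without sensitive replicate 1 (0.25% of 801 tested) and without sensitive replicate 3 (0.24% of 833 tested), the 2 miRNAs called higher were both arms of miR-675. In all, miR-675-5p passed in 14 and miR-675-3p in 15 of the 15 alternatives, whose log2 fold changes ran from 4.01 to 5.91 for miR-675-5p and from 4.32 to 5.62 for miR-675-3p. In the 9 alternatives that kept all libraries, between 1.04% and 19.3% of tested miRNAs were called higher.

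**Figure D2:**
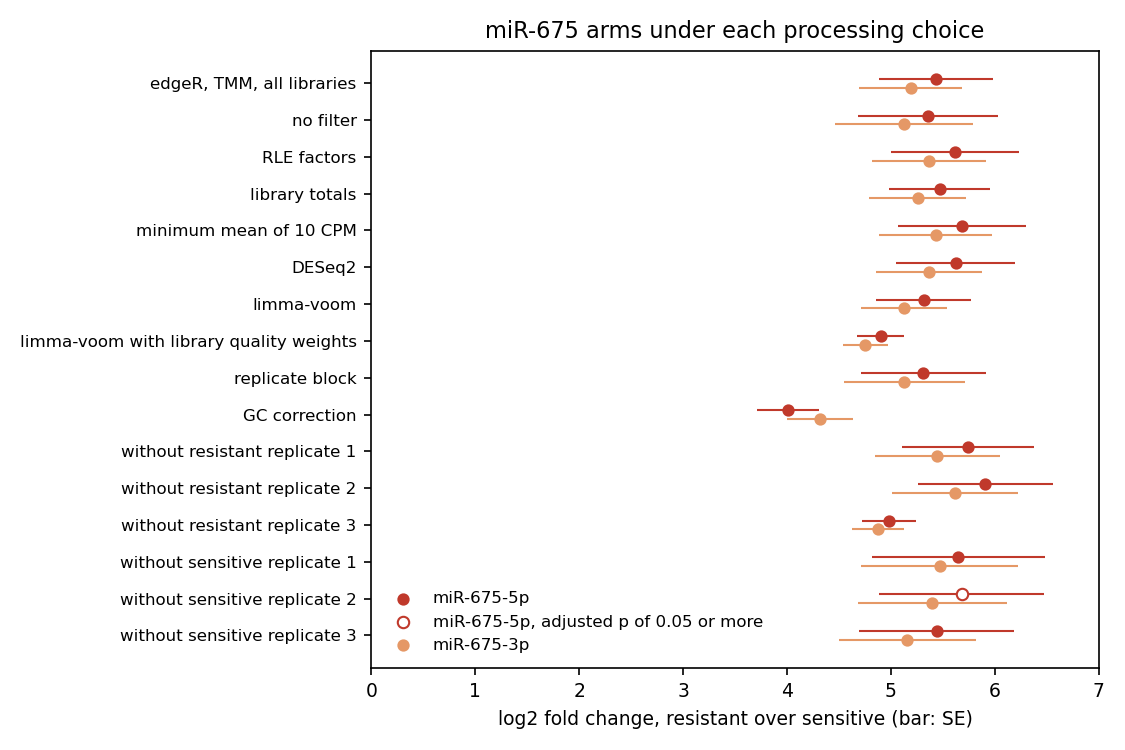
Log2 fold change (resistant over sensitive, horizontal axis, bars are SE) of miR-675-5p and miR-675-3p under each processing choice; filled points have an adjusted p under 0.05 and the open point does not. All points lie between 4.01 and 5.91, with the lowest values under the GC correction and the 1 open point for miR-675-5p without sensitive replicate 2.

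The 3p arm had more counts than the 5p arm of the miR-675 hairpin in every library. Ligation preferences of the library kit enter such shares too, so they do not give the relative abundance of the arms. Of the miR-675 counts, 34.7%, 35.2% and 39.4% came from the 5p arm in resistant replicates 1 to 3 (with exact 95% binomial bounds of 33.3% to 36.0%, 34.0% to 36.5% and 37.4% to 41.4%), against 31.4%, 34.1% and 34.7% in sensitive replicates 1 to 3 (25.2% to 38.2%, 26.9% to 41.9% and 23.9% to 46.9%). Resistant replicates 1 and 2 lay within the intervals of all 3 sensitive libraries. Resistant replicate 3 lay above its fellow replicates, in the direction in which that library over-represents GC-rich miRNAs, and the 5p arm is the more GC-rich arm. The part of GC content in that shift was not tested.

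**Figure D3:**
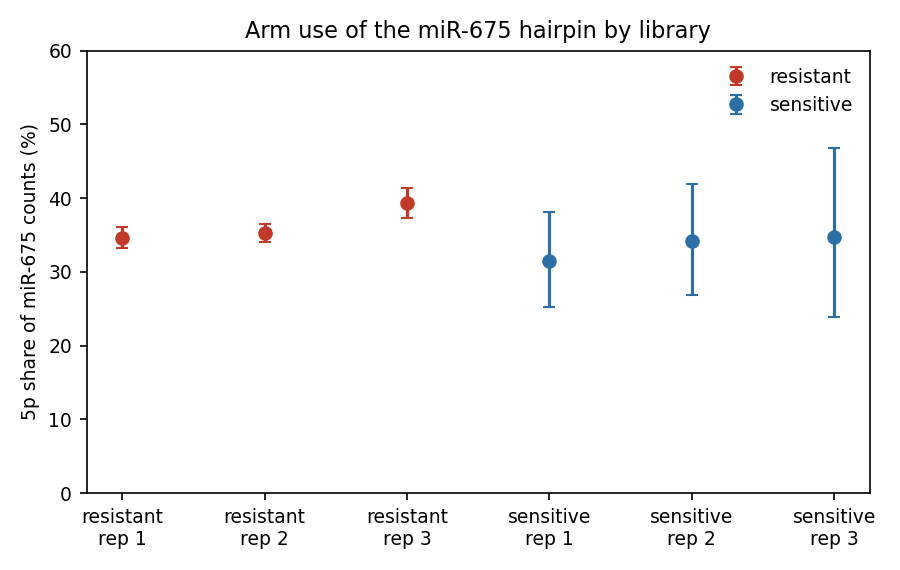
Share of miR-675 counts from the 5p arm (percent, vertical axis) in each library, with exact 95% binomial intervals. The shares run from 34.7% to 39.4% in resistant and from 31.4% to 34.7% in sensitive libraries, and the sensitive intervals are wide because they rest on 72 to 210 counts.

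The log2 ratio of the 5p over the 3p arm averaged -0.80 ± 0.16 in resistant and -0.99 ± 0.12 in sensitive libraries (SD, n = 3 each, with 0.5 added to each count). The ratios of the groups overlapped, since sensitive replicate 3 was above resistant replicate 1, while 23.4% of the 205 miRNAs whose arms were both tested had ratios that did not overlap. In a limma fit over these 205, the difference, resistant minus sensitive, was 0.18 (95% interval -0.66 to 1.02, adjusted p = 0.748), and 1.46% of these miRNAs passed. On the ratio scale the 5p over 3p ratio of resistant cells was 1.13 times that of sensitive cells (95% interval 0.634 to 2.03). A change in arm use was therefore not detected, and the interval leaves room for a ratio from 0.634 to 2.03 times that of sensitive cells. An exact two-sided permutation test of the single ratio gave p = 0.2, where 3 against 3 libraries cannot give less than 0.1. Without resistant replicate 3 the difference was 0.09. By size the difference ranked 176th of 205, and the median absolute difference over the 205 was 0.65.

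hsa-miR-483-5p, an arm that circulates in patients with adrenocortical carcinoma, had 0, 1 and 0 counts in resistant replicates 1 to 3, and 0, 1 and 0 counts in sensitive replicates 1 to 3. For a count of 0 a limit of 3 counts was set. It was 0.361 and 0.911 raw CPM in resistant replicates 1 and 3, and 0.239 and 0.530 in sensitive replicates 1 and 3. The upper ends of the exact 95% binomial intervals were 0.444 and 1.12 in these resistant and 0.294 and 0.652 in these sensitive libraries. With 1 count in each group no fold change is given.

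hsa-miR-483-3p, the BBC3-targeting arm, had 2, 4 and 2 counts in resistant replicates 1 to 3, against 8, 6 and 0 counts in sensitive replicates 1 to 3. The shares were 0.241, 0.376 and 0.608 raw CPM in resistant libraries and 0.637, 0.588 and 0 in sensitive libraries. For the last, the limit of 3 counts is 0.530 and the upper end of the exact 95% interval 0.652. The groups overlapped. Summed over a group, 8 counts among 22242200 in resistant libraries and 14 among 28421963 in sensitive libraries gave 0.360 and 0.493 raw CPM (exact 95% intervals 0.155 to 0.709 and 0.269 to 0.826). Their ratio, resistant over sensitive, was 0.730 (exact Poisson 95% interval 0.265 to 1.87, counting error only). A change within that interval was not detectable at this depth, and spread between libraries, which the interval leaves out, widens that limit. Neither arm of miR-483 passed the filter on low counts. In a fit without that filter miR-483-3p had a log2 fold change of -0.44 ± 1.07 (SE, edgeR adjusted p = 0.833), and 6.63% of the 1734 miRNAs of that fit were called higher and 2.71% lower.

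Of the few miR-483 counts, 8 of 9 in resistant and 14 of 15 in sensitive libraries came from the 3p arm, shares of 88.9% and 93.3% (exact 95% intervals 51.8% to 99.7% and 68.1% to 99.8%). The arm ratio per library rests on 0 to 8 counts, and its log2 difference between the groups was -0.01 (exact two-sided permutation p = 1).

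The ratio of miR-675 to miR-483 counts was higher in the resistant libraries than in sensitive replicates 1 and 2. miR-483 had 0 to 8 counts per library and no detected change. The ratio therefore restates the rise of miR-675 and is not separate support for it. In resistant replicates 1 to 3 there were 2367, 1184 and 1175 miR-675 counts for each miR-483 count, both arms summed (exact 95% bounds 655 to 19551, 507 to 3647 and 325 to 9708). In sensitive replicates 1 and 2 there were 26.2 and 23.4 (13.1 to 61.6 and 11.1 to 59.2), and in sensitive replicate 3, without a miR-483 count, at least 24 against a floor of 3 counts. The intervals of the resistant libraries lay above those of sensitive replicates 1 and 2. The log2 ratio per library, which does not depend on scaling, was 4.86 higher in resistant cells with 0.5 added to each sum (exact two-sided permutation p = 0.1, the smallest that 3 against 3 libraries can give). It was 4.37 to 5.74 higher under the 11 alternatives. For sensitive replicate 3, where miR-483 was at 0, the value depends on what is added to the sum.

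With edgeR and all libraries, other miRNAs of chromosome 11 were called at about the share of all tested miRNAs. Within 5000000 bases of MIR675 the table held 11 other miRNAs, of which 5 had a count and 3 passed the filter. miR-210-3p, a miRNA induced by hypoxia from a hairpin 1.43 megabases away, averaged 104 CPM in resistant and 94.3 CPM in sensitive cells, a log2 fold change of 0.14 ± 0.42 (SE), with an edgeR adjusted p = 0.824. miR-210-5p had a log2 fold change of 1.15 (edgeR adjusted p = 0.408) and miR-4687-3p, 1.86 megabases away, one of 0.39 (edgeR adjusted p = 0.805), both at under 4 CPM in either group. With edgeR 0 of these 3 passed (2.08% of all tested miRNAs in each direction), and with DESeq2 also 0 (12.8% higher and 6.64% lower over all). Before adjustment 0 of the 3 had an edgeR p under 0.05, and the share of all tested miRNAs with such a p is not given here. Counts over 3 miRNAs do not set them apart from the rest. Leaving out resistant replicate 3 gave log2 fold changes of 0.27 for miR-210-3p, -0.08 for miR-210-5p and -1.30 for miR-4687-3p.

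Of the other miRNAs made on chromosome 11, 80 had a count and 33 were tested, and 1 rose, 1 fell and 31 did not pass with edgeR, near the 2.08% of all tested miRNAs in each direction. DESeq2 called 3 of the 33 higher and 4 lower, where it called 12.8% of all tested miRNAs higher and 6.64% lower. Before adjustment 10 of the 33 had an edgeR p under 0.05. The share of all tested miRNAs with such a p is not given here, so the 10 are not read as high or low. The median log2 fold change of the 33 was 0.14, against -0.11 over all tested miRNAs. Without resistant replicate 3, 3 of 36 rose and 8 fell (13.7% and 14.4% over all tested miRNAs of that fit), and the median was -0.17. let-7a-5p, a repressor of RAS and HMGA2 transcripts, rose to 7256 CPM in resistant cells, against 1261 CPM in sensitive cells, a log2 fold change of 2.52 ± 0.43 (SE), with an edgeR adjusted p = 0.0198. miR-125b-5p, a miRNA of blood stem and progenitor cells, fell to 1.72 CPM in resistant cells, against 30.3 CPM in sensitive cells, a log2 fold change of -4.14 ± 0.44 (SE), with an edgeR adjusted p = 0.00219. Their hairpins on this chromosome lie over 120 megabases from MIR675, and both miRNAs are also made by hairpins on other chromosomes. miR-1260b, the most abundant of the 33, had a log2 fold change of 1.19 with all libraries (edgeR adjusted p = 0.398) and of -0.66 without resistant replicate 3 (edgeR adjusted p = 0.0189).

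**Figure D4:**
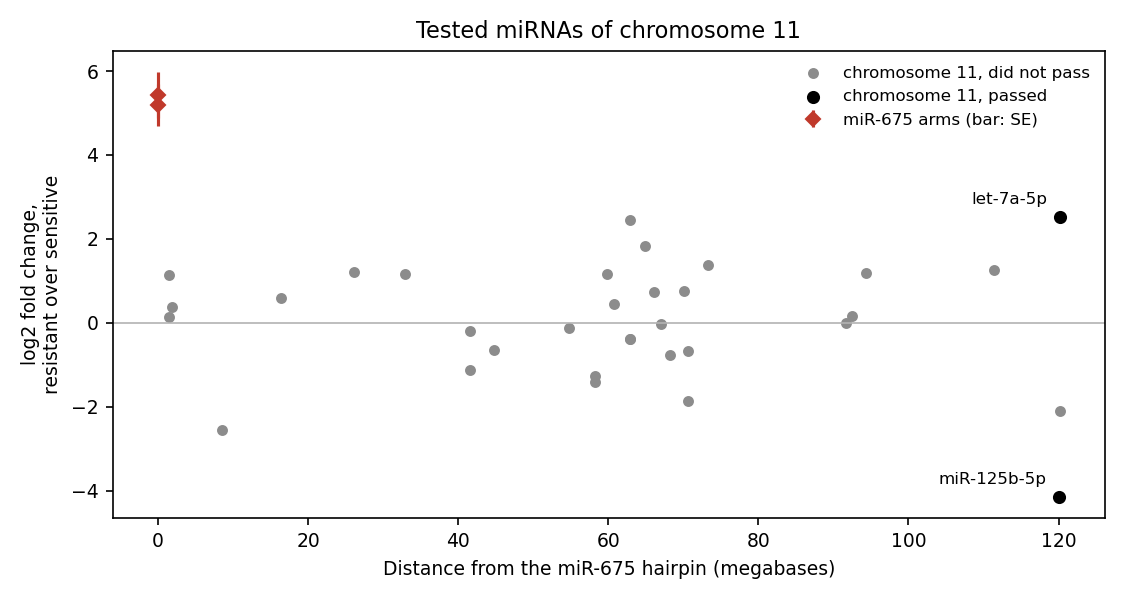
Log2 fold change (resistant over sensitive, vertical axis) of the 33 other tested miRNAs of chromosome 11 against the distance of their hairpin from MIR675 (megabases), with both miR-675 arms at distance 0 (bars are SE). The other miRNAs lie between -4.14 and 2.52, under both miR-675 arms, and the 2 that passed the test are named.

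No tested miRNA of a list from other imprinted loci passed the test with all libraries. The list held 89 miRNAs of the MEST, GNAS, 14q32 and 19q13 loci. Of 14q32 it held 18, from miR-770 to miR-370, and left out the miR-379/miR-656 cluster of that locus, which the values of the list do not describe. Of the 89 listed miRNAs, 45 had a count and 22 were tested. With edgeR 0 of the 22 rose and 0 fell, where 2.08% of all tested miRNAs were called in each direction. DESeq2 also called 0 of the 22 in either direction, where it called 12.8% of all tested miRNAs higher and 6.64% lower. Before adjustment 2 of the 22 had an edgeR p under 0.05. The share of all tested miRNAs with such a p is not given here, so the 2 are not read as high or low. The median log2 fold change of the 22 was -0.15. miR-127-3p, the most abundant of the 22, from the maternally expressed part of 14q32, averaged 22336 CPM in resistant and 19431 CPM in sensitive cells, a log2 fold change of 0.20 ± 0.38 (SE), with an edgeR adjusted p = 0.733. Both tested arms from MEST, miR-335-5p and miR-335-3p, had log2 fold changes of -0.01 and -0.41 (edgeR adjusted p = 0.994 and 0.711), and both from GNAS, miR-296-5p and miR-296-3p, had 1.15 and 1.14 (edgeR adjusted p = 0.291 and 0.433). Leaving out resistant replicate 3 gave 0.50 and 0.14 for the miR-335 arms (edgeR adjusted p = 0.198 and 0.728). For the miR-296 arms it gave 0.41 and -0.15 (edgeR adjusted p = 0.518 and 0.877). None of the 66 listed miRNAs of the 19q13 cluster passed the filter, and 23 of them had a count. Without resistant replicate 3, 0 of the 22 rose and 4 fell, where 13.7% of all tested miRNAs of that fit were called higher and 14.4% lower. The 4 were all from 14q32. In that fit miR-136-5p, miR-136-3p, miR-665 and miR-337-3p had log2 fold changes of -1.39, -1.27, -0.91 and -0.70 (edgeR adjusted p = 0.00171, 0.00199, 0.0419 and 0.0324). With all libraries these were -1.99, -1.82, -1.06 and -1.28 (edgeR adjusted p = 0.198, 0.166, 0.163 and 0.313).

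miR-4466, which shares its seed with miR-675-5p, had 1, 1 and 8 counts in resistant replicates 1 to 3 and 3, 1 and 0 counts in sensitive replicates 1 to 3, and missed the filter. Its highest level, 2.43 raw CPM in resistant replicate 3, was far under the 281 raw CPM of miR-675-5p there. Among these miRNAs, nearly all counts with that seed in resistant libraries were thus those of miR-675-5p.

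Across the 6 libraries the arms of miR-675 followed each other closely (Pearson's r 0.999, log2 CPM). The miRNAs with the most similar pattern were the same 3 for both arms. miR-200c-3p, an epithelial miRNA that represses ZEB1, had r = 0.996 with miR-675-5p and 0.997 with miR-675-3p. It had 321, 294 and 437 CPM in resistant replicates 1 to 3, against 102, 93.1 and 79.5 CPM in sensitive replicates 1 to 3. let-7a-5p followed with r = 0.994 and 0.990, and miR-449c-5p with r = 0.988 and 0.992. miR-449c-5p had 7.84, 8.52 and 8.25 CPM in resistant replicates 1 to 3, against 1.91, 1.74 and 1.66 CPM in sensitive replicates 1 to 3. These correlations describe 6 libraries that fall into both groups and share the difference between them, so they carry no test.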

How the data were processed

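The authors deposited 1 table of counts per mature miRNA, whole numbers with no normalization, for 3 resistant and 3 sensitive K562 libraries. Per the labels' protocols, RNA came from TriPure extraction with DNase treatment, the library kit was NEBNext for small RNA, and sequencing was on a NovaSeq. Per the submitters' processing notes the genome build is GRCh38. For the aligner, counting program, miRBase release and read filters, the sources used here give nothing, so how reads that match several miRNAs were counted is unknown. Chi-square tests of counts found no pair of replicates within sampling noise.

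Counts were filtered with filterByExpr (minimum count 10, minimum total 15), scaled with TMM factors over whole library totals and tested with edgeR 4.0.16 in R 4.3.3, with Benjamini-Hochberg adjustment over 768 miRNAs and a threshold of 0.05. SE is the absolute log2 fold change over the square root of F. Arm ratios, paired by name, were tested with limma 3.58.1. The fits were tested on simulated data. Alternatives covered scaling, filter, DESeq2 1.42.0, limma-voom, library quality weights, the replicate block, a loess correction on GC content (677 of 768 tested miRNAs have a sequence), pseudocounts and each library left out. Other miRNAs were named by fixed rules: the 3 closest by Pearson's r, and from each list those that passed plus the most abundant. The members and lists were chosen with earlier results of these data known.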

Additional observations from a re-analysis of the deposited data

How the results depend on the processing

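Both arms of miR-675 kept their direction under all 15 alternatives tried, and miR-675-5p lost its call without sensitive replicate 2. Leaving out 1 library at a time gave miR-675-5p log2 fold changes of 4.98 to 5.91. The count of called miRNAs, 32 with all libraries, was far less stable. It was 162 without the filter, 21 with RLE factors, 14 with a minimum mean of 10 CPM, 149 with DESeq2, 323 with limma-voom and library quality weights and 81 with the GC correction. Leaving out 1 library gave 4 to 231 calls, with 231 without resistant replicate 3 and 4 to 26 without any other library; the cause was not tested. The median log2 fold change of tested miRNAs was -0.11 with TMM, -0.01 with RLE factors and 0.09 with library totals. Arm ratios past the threshold, 3 in all, numbered 1 with a pseudocount of 5 and 7 with array quality weights. For miR-483, at a handful of counts, signs turned. The log2 fold change of miR-483-3p was 0.083 with limma-voom and stayed between -0.97 and -0.02 with 1 library left out. Its arm ratio difference was 0.16 with a pseudocount of 1, 0.23 with one of 5, and -1.02 to 1.03 with 1 library left out. With the replicate number as a block, 23 miRNAs were called and the log2 fold changes were 5.31 for miR-675-5p and 5.13 for miR-675-3p (edgeR adjusted p = 0.0210 for each). Deviations of same-numbered libraries correlated at -0.06, 0.26 and 0.13, so the numbers were not taken to pair the samples. miR-483-5p, at 1 count a group, and miR-483-3p under the GC correction or the 10 CPM minimum were not fitted.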

Other observations

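The 5p over 3p ratio passed the test for 3 of the 205 miRNAs paired by name, and in each it was higher in resistant cells. In the RefSeq table miR-181a-5p and miR-181b-5p are each made by a hairpin on chromosome 1 and by a further one on chromosome 9, while the 3p arm they were paired with comes from the chromosome 1 hairpin alone, and miR-548ae-3p is also made by more than 1 hairpin. These ratios therefore do not measure the arm use of a single hairpin. For miR-181a, a regulator of lymphocyte signalling, the log2 ratio was 8.09 higher in resistant cells (95% interval 7.06 to 9.12, limma adjusted p = 2.91e-05), with the 3p arm at 0 counts in all 3 resistant libraries and 1372, 808 and 799 counts in sensitive replicates 1 to 3, so that this value depends on the 0.5 added to each count. For miR-181b it was 5.00 higher (95% interval 3.73 to 6.27, limma adjusted p = 0.00228), with the 3p arm at 0 counts in all 3 resistant libraries and 56, 42 and 57 counts in sensitive replicates 1 to 3, so the same dependence holds. The 3p arms of the chromosome 9 hairpins did not pass, with miR-181a-2-3p at 43.5 CPM in resistant and 29.6 CPM in sensitive cells (edgeR adjusted p = 0.365) and miR-181b-2-3p at 1.02 CPM in resistant and 1.17 CPM in sensitive cells (edgeR adjusted p = 0.875). For miR-548ae, of a transposon-derived family, the log2 ratio was 3.10 higher (95% interval 1.89 to 4.32, limma adjusted p = 0.0289). Before adjustment 16 of the 205 had a limma p under 0.05.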
